A study of Mus musculus with 11 samples.

Results

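The core genes of necroptosis and pyroptosis were examined in the pancreas of mice with caerulein-induced acute pancreatitis. The set named the kinases Ripk1 and Ripk3, the pore-forming effectors Mlkl and Gsdmd, the inflammasome sensor Nlrp3, its adaptor Pycard, and the caspases Casp1, Casp4 and Casp8. A gene was taken where a probe set carried its symbol and no other in the platform annotation, and the brightest such probe set, by its mean on the 11 arrays, stood for it. Of the 9 genes, 8 were measured, each by 1 probe set, out of 19938 genes with such a probe set; Ripk1 was not analysed here.

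RNA of whole pancreas was hybridised to 1 Affymetrix array per sample. The caerulein group held 6 samples from wild-type C57Bl6J mice given 9 hourly intraperitoneal injections of caerulein, a cholecystokinin analogue that overstimulates acinar cells, at a dose the series record states as 50 mg/kg, a unit not checked here. The NaCl group held 5 samples from wild-type C57Bl6J mice given sodium chloride, although the record counts 4 controls. The sources used here give neither the age and sex of the mice nor the time from the last injection to tissue collection. They do not say whether the samples come from separate mice, so a p-value reflects only how far these samples spread, which may be technical.

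Necroptosis is a lytic form of cell death in which RIPK3, engaged through RIPK1 or other partners, phosphorylates MLKL, which then damages the plasma membrane; caspase-8 holds this pathway back by cleaving the kinases and can itself start apoptosis. In pyroptosis, a sensor such as NLRP3 gathers the adaptor ASC, the product of Pycard, and caspase-1, which matures interleukin-1 beta and interleukin-18 and cuts gasdermin D into a pore-forming fragment. Caspase-11, the mouse protein encoded by Casp4, cuts gasdermin D in response to cytosolic endotoxin. The phosphorylation, cleavage and assembly steps of both pathways act on proteins, and transcript levels do not show them.

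In caerulein pancreas the transcripts of Mlkl, Casp8 and Casp4 were higher, by 2.00-fold, 1.96-fold and 1.27-fold. The other 5 genes, Ripk3, Nlrp3, Pycard, Casp1 and Gsdmd, did not pass the test, with log2 differences between -0.21 and 0.02. The test was limma's moderated test over all 35556 probe sets with a threshold of 0.05 on the Benjamini-Hochberg adjusted p, and differences are on the log2 scale, NaCl mean subtracted from caerulein mean. Thus 3 of 8 genes were higher and 0 lower, whereas among all 19938 genes 20.3% were called higher and 34.3% lower, and among all probe sets 16.4% and 27.8%. The median difference of the 8 genes was -0.01, against -0.13 over all genes and -0.11 over all probe sets. In whole tissue, fewer cells of a type and less RNA per cell cannot be told apart.

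The scale of the arrays bears on these directions. When each array was shifted to an equal mean of 11 commonly used reference genes, the median of all probe sets went from -0.11 to -0.70. These genes together thus stood higher in caerulein arrays as deposited, and their stability under caerulein was not tested. Of all probe sets called, 62.9% were lower as deposited, 92.9% on the scale of the reference genes, 72.1% with equal 75th percentiles and 46.4% after cyclic loess. On the scale of the reference genes Mlkl and Casp8 were still higher, by 0.41 (limma adjusted p = 0.00691) and 0.38 (limma adjusted p = 0.00731). Casp4 reversed to -0.24 (limma adjusted p = 0.0383), and the other 5 genes were called lower. Relative to the median of all probe sets, which such a shift does not alter, Mlkl stood 1.11 above it, Casp8 1.08 above it and Casp4 0.45 above it. The remaining 5 lay between -0.10 and 0.12 of that median.

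**Figure D1:**
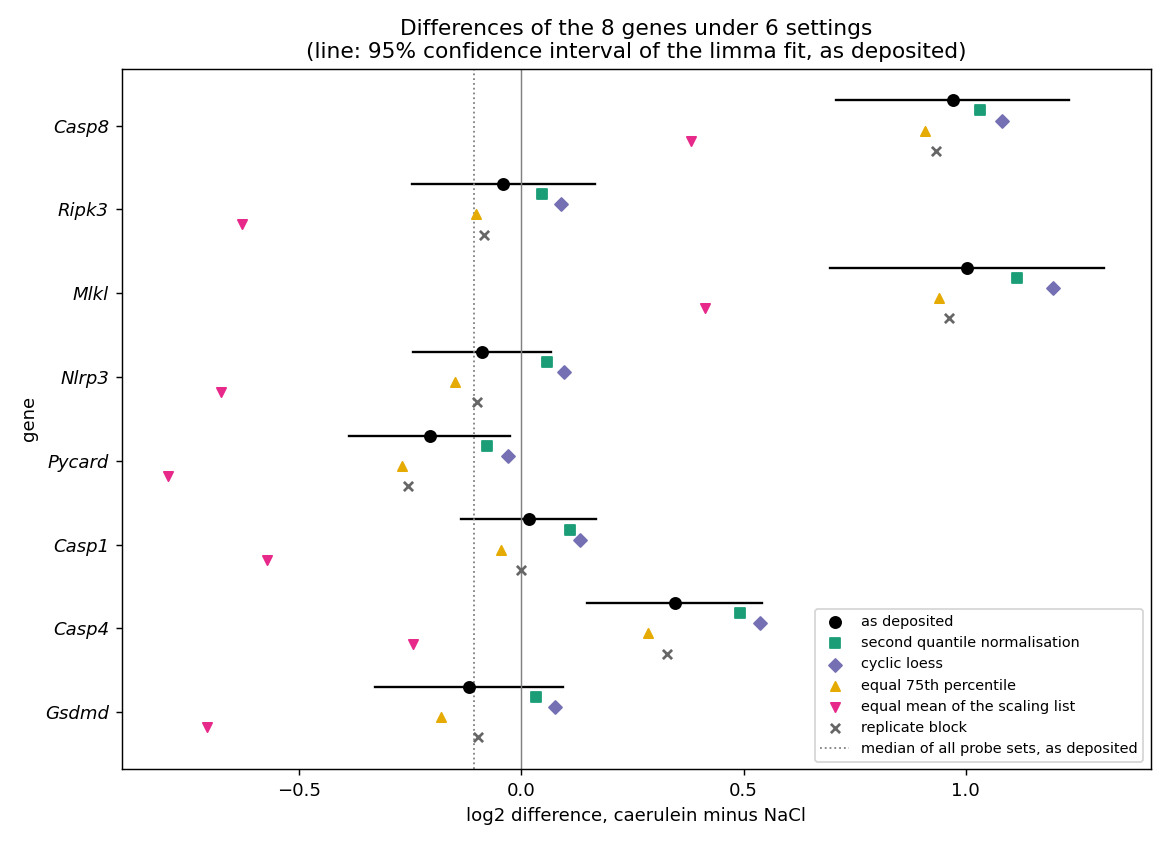
Log2 difference, caerulein minus NaCl (x axis), of the 8 measured genes (y axis) as deposited and under 5 other settings; the horizontal line is the 95% confidence interval of the limma fit to the deposited values. Casp8 and Mlkl lie above 0 under each of the 6 settings shown, and Casp4 lies below 0 only when reference genes set the scale.

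The tissue was checked against its markers. The acinar proenzyme gene Cpa1 averaged 14.60 ± 0.03 in caerulein arrays (SD, n = 6) and 14.64 ± 0.03 in NaCl arrays (SD, n = 5) on the log2 scale. Cpa1 and 4 other enzyme genes of the 9 measured acinar markers did not pass, all at the top of the array range, where changes can be compressed. Cckar, which encodes the receptor that caerulein binds, was 16.6-fold lower, the acinar transcription factor genes Bhlha15 and Rbpjl were 4.00-fold and 2.69-fold lower, and Ptf1a was 1.47-fold higher. Of 12 measured monocyte and macrophage markers, 7 were higher and 1 lower, and their summed level, as log2, ranged from 9.87 to 10.92 in caerulein arrays and from 9.14 to 9.34 in NaCl arrays. The summed level of 12 neutrophil markers ranged from 8.38 to 8.86 in caerulein arrays, around the NaCl range of 8.53 to 8.66. Of 5 measured duct markers 4 were higher and 0 lower, with summed levels of 11.93 to 12.21 in caerulein arrays and 8.83 to 9.10 in NaCl arrays. In caerulein arrays that sum was mostly Krt19, with a mean of 11.70 against 7.32 in NaCl arrays. Krt7, Epcam and Cftr were 3.85-fold, 4.46-fold and 1.35-fold higher, and Sox9 did not pass, at 0.41 (limma adjusted p = 0.0598). Of 7 measured T and NK cell markers 0 were higher and 4 lower, with summed levels of 7.80 to 7.97 and 8.08 to 8.13 in caerulein and NaCl arrays. The 4 lower ones, Cd3e, Nkg7, Cd4 and Cd8a, had differences of -0.23, -0.28, -0.37 and -0.39. All these marker counts stand beside 20.3% of all genes called higher and 34.3% called lower. RMA gives no zero values and no detection calls were analysed here, so the absence of a marker was not established.

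The necroptosis branch is described first. Mlkl, the executioner of necroptosis, had log2 values of 5.24 at the lowest, 5.86 at the median and 6.19 at the highest in caerulein arrays. In NaCl replicates 1 to 5 its values were 4.94, 4.97, 4.61, 4.85 and 4.73. The groups did not overlap, and caerulein replicate 2 was the lowest of its group, with the next at 5.76. The mean was 5.82 ± 0.32 in caerulein arrays (SD, n = 6) and 4.82 ± 0.15 in NaCl arrays (SD, n = 5), a log2 difference of 1.00 (SE 0.14, 95% confidence interval 0.69 to 1.31, limma adjusted p = 0.0001). Without caerulein replicate 2 the difference was 1.12.

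Ripk3, the kinase that phosphorylates MLKL, had caerulein values of 5.69 at the lowest, 5.88 at the median and 6.18 at the highest. Its NaCl values were 5.87, 5.93, 6.01, 5.92 and 6.07. The groups overlapped, with 3 caerulein arrays below all NaCl arrays and 2 above all of them, so the caerulein group was the wider one, with an SD of 0.20 against 0.08 in NaCl arrays. The log2 difference was -0.04, with a 95% confidence interval of -0.25 to 0.17 that leaves out a rise of the size of that of Mlkl (limma adjusted p = 0.757).

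On each array the log2 value of Mlkl minus that of Ripk3 is free of any shift of the whole array, although its level has no meaning across different probes. This difference was -0.44 to 0.28 in caerulein arrays and -1.40 to -0.93 in NaCl arrays, and the groups did not overlap. It shifted by 1.04, so the transcripts of the effector and of its kinase changed unequally. This comparison, and those of Casp8 with Ripk3 and of Casp4 with Casp1 below, were chosen after the values were seen.

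Casp8, whose product restrains necroptosis and can start apoptosis, had caerulein values of 6.32 at the lowest, 6.41 at the median and 6.68 at the highest. Its NaCl values were 5.73, 5.27, 5.16, 5.73 and 5.64 in replicates 1 to 5. All caerulein arrays lay above all NaCl arrays, and here the NaCl group was the wider one, with replicates 2 and 3 apart from the others. The means were 6.47 ± 0.16 in caerulein arrays (SD, n = 6) and 5.50 ± 0.27 in NaCl arrays (SD, n = 5), with a log2 difference of 0.97 (SE 0.12, 95% confidence interval 0.71 to 1.23, limma adjusted p = 3.3e-05). Thus the transcripts for the effector of necroptosis and for the protease that restrains the pathway were both higher. The log2 value of Casp8 minus that of Ripk3 shifted by 1.01, from sets of arrays that did not overlap (0.28 to 0.84 in caerulein arrays and -0.85 to -0.14 in NaCl arrays). As Ripk3 was already seen to differ little between the groups, this shift largely repeats the difference of Casp8. Without overlap, 2 of the 8 genes lay higher in caerulein arrays and 0 lower, against 16.7% and 20.6% of all genes.

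**Figure D2:**
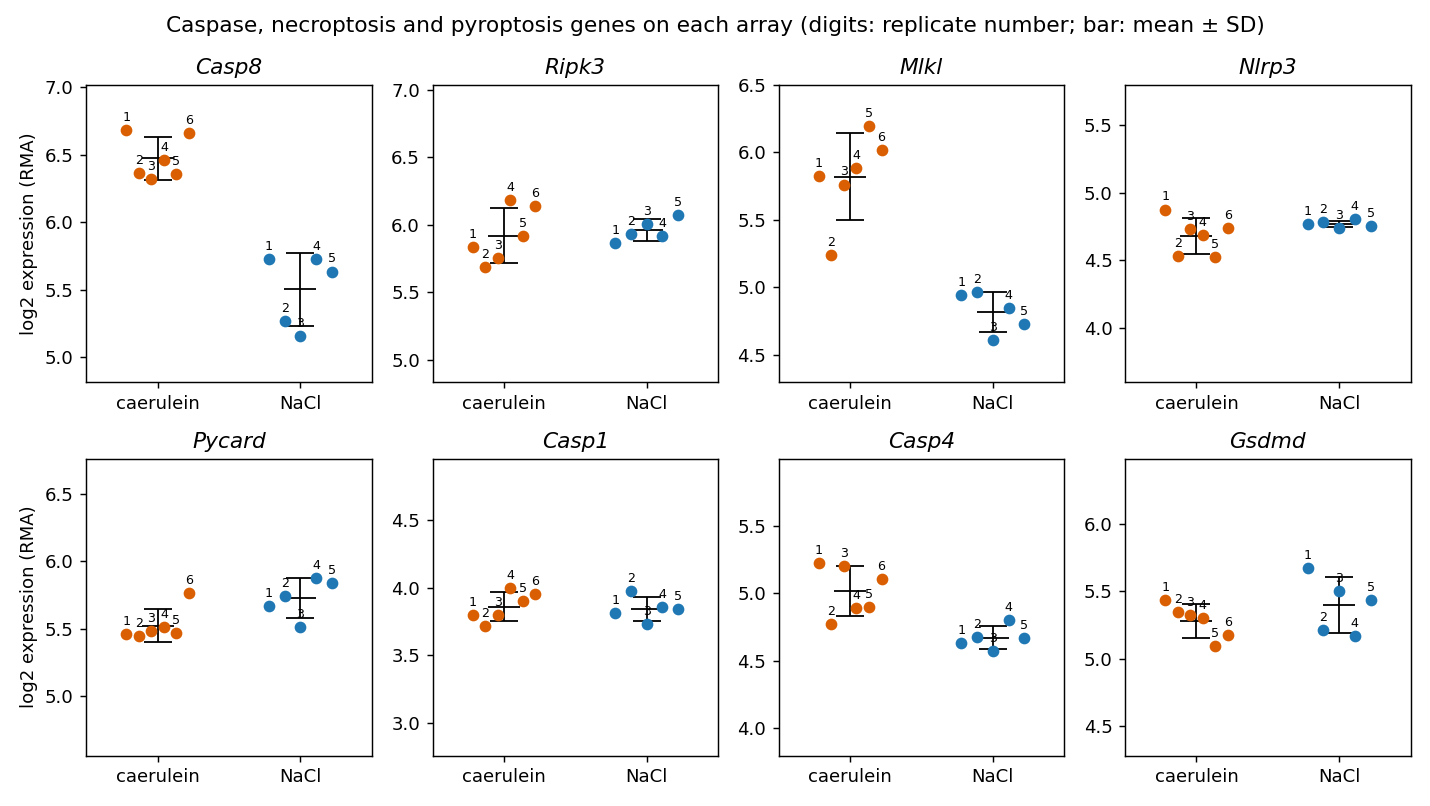
Log2 expression (y axis, each panel spanning the same range) of the 8 measured genes on every array, with caerulein (orange, n = 6) left of NaCl (blue, n = 5); digits are replicate numbers and black bars the mean ± SD. Casp8 and Mlkl separate the groups completely, Casp4 does so except for caerulein replicate 2, and the other 5 genes overlap.

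In the pyroptosis branch 1 of 5 genes was called higher, a share near the 20.3% of all genes. Casp4, which encodes the endotoxin-sensing caspase-11, had caerulein values of 4.78 at the lowest, 5.00 at the median and 5.22 at the highest. Its NaCl values were 4.63, 4.68, 4.57, 4.80 and 4.67. Of the 6 caerulein arrays 5 lay above all NaCl arrays, and the exception was caerulein replicate 2, also the lowest array for Mlkl. The means were 5.02 ± 0.19 in caerulein arrays (SD, n = 6) and 4.67 ± 0.09 in NaCl arrays (SD, n = 5), with a log2 difference of 0.35 (SE 0.09, 95% confidence interval 0.15 to 0.54, limma adjusted p = 0.0084) that turned negative with an equal mean of the reference genes, as given above.

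Casp1, the caspase of the canonical inflammasome, lies next to Casp4 on chromosome 9, with Casp12 on the other side of Casp4. Its values ran from 3.72 to 4.00 in caerulein arrays, with a median of 3.85, and were 3.81, 3.97, 3.73, 3.86 and 3.84 in NaCl arrays, so the groups lay in the same range. The log2 difference was 0.02 (95% confidence interval -0.14 to 0.17, limma adjusted p = 0.863). Casp12 had a difference of -0.05 (limma adjusted p = 0.564). The log2 value of Casp4 minus that of Casp1 shifted by 0.33, with overlap between 0.90 to 1.43 in caerulein arrays and 0.71 to 0.95 in NaCl arrays. Casp1, Casp4 and Nlrp3 lay below the median level of all probe sets, where RMA values can compress changes and a signal above background was not established.

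Nlrp3, the sensor, had caerulein values of 4.52 at the lowest, 4.71 at the median and 4.88 at the highest. The NaCl values were 4.77, 4.79, 4.74, 4.80 and 4.75, the tightest group of any of the 8 genes, with an SD of 0.03. Of the caerulein arrays 5 lay below all NaCl arrays and replicate 1 above all of them, and the difference of -0.09 did not pass (95% confidence interval -0.24 to 0.07, limma adjusted p = 0.336).

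Pycard, which encodes the adaptor ASC, had caerulein values of 5.44 at the lowest, 5.47 at the median and 5.77 at the highest. Its NaCl values were 5.67, 5.74, 5.51, 5.88 and 5.84. Here 5 caerulein arrays lay below all NaCl arrays, and caerulein replicate 6 lay among the NaCl values. The log2 difference of -0.21 missed the threshold (SE 0.08, 95% confidence interval -0.39 to -0.02 before adjustment, limma adjusted p = 0.0627). The call depended on single arrays, being lower without caerulein replicate 6 (-0.26, limma adjusted p = 0.0202) or without NaCl replicate 3 (-0.26, limma adjusted p = 0.0246).

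Gsdmd, which encodes the pore-forming protein of pyroptosis, had caerulein values of 5.10 at the lowest, 5.31 at the median and 5.44 at the highest. The NaCl values were 5.67, 5.22, 5.50, 5.17 and 5.44 and covered most of the caerulein range. The log2 difference was -0.12 (95% confidence interval -0.33 to 0.09, limma adjusted p = 0.345). Ripk3, Nlrp3 and Gsdmd changed sign after cyclic loess normalisation, at 0.09, 0.10 and 0.08, without passing the test there.

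The 250 bases before the annotated start are shown for the 3 genes called higher and for Casp1, the neighbour of Casp4 that did not pass. They come from RefSeq, build GRCm38.p6, which held windows for 7 of the 8 genes, and are written 5′ to 3′ on the strand of the gene. Capitals mark matches to the consensus of NF-kB, a transcription factor family of inflammation.
Casp4 (chr9:5308599-5308848, + strand): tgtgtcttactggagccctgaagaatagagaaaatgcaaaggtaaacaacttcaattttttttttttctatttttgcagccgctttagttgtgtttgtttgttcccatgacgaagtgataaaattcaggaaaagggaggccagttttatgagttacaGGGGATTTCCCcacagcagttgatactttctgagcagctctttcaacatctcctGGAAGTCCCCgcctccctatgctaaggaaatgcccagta
Casp1 (chr9:5298267-5298516, + strand): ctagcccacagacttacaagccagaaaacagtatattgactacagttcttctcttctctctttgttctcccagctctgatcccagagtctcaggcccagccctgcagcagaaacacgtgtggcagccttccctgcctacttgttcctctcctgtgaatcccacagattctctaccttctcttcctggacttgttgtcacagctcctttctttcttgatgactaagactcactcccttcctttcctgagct
Mlkl (chr8:111338206-111338455, - strand): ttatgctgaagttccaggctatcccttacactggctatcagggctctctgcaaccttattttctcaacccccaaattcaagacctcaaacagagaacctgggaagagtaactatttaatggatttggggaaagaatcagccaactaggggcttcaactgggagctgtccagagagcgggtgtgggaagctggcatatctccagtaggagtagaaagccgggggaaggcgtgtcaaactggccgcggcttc
Casp8 (chr1:58802252-58802501, + strand): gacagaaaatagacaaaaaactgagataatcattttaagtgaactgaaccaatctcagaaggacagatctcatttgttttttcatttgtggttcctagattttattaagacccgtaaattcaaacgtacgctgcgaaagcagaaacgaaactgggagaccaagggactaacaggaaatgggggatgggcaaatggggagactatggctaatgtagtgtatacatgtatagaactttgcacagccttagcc

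Casp4 held 3 NF-kB matches on either strand, of which 2 overlap in the run GGGGATTTCCC, 93 to 83 bases before the start, and 1 reads GGAAGTCCCC, 39 to 30 bases before it. A match to this consensus occurred in 7.25% of all 32851 windows of the same length. The Casp1, Mlkl and Casp8 windows held none, and 1 of 2 Nlrp3 windows held a match (GGGAACCCCC, 186 to 177 bases before the start). None of the 9 windows of the 7 genes matched the interferon-stimulated response element (2.98% of all windows), the STAT motif TTCNNNGAA (7.02%), the AP-1 motif TGANTCA (6.75%) or the C/EBP-ATF motif TGATGNAAT (0.816%). The motifs were chosen after the results were known, and a match or its absence describes only these letters.

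Of the 12 macrophage markers 7 were higher beside Mlkl, Casp8 and Casp4. On the arrays of the caerulein group the summed level of the 12 was lowest in replicate 2, at 9.87, where Mlkl and Casp4 were also lowest, and next lowest in replicate 3, at 9.94, where Casp8 was lowest but Casp4, at 5.21, was second highest. It was highest in replicate 6, at 10.92, where Mlkl was 6.02, Casp8 6.66 and Casp4 5.10. Mlkl was highest in replicate 5, at 6.19 with a summed level of 10.41, and Casp8 and Casp4 were highest in replicate 1, at 6.68 and 5.22 with a summed level of 10.48. The markers with the largest rises, Cd14, Lyz2 and Cd68, were 4.94-fold, 4.02-fold and 3.01-fold higher. Mertk was lower, at -0.23 (limma adjusted p = 0.0355), and Csf1r, Cx3cr1, Mrc1 and Marco did not pass, with differences of 0.16, -0.06, 0.33 and -0.15. The part of these cells in the differences of Mlkl, Casp8 and Casp4 was not tested.

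**Figure D3:**
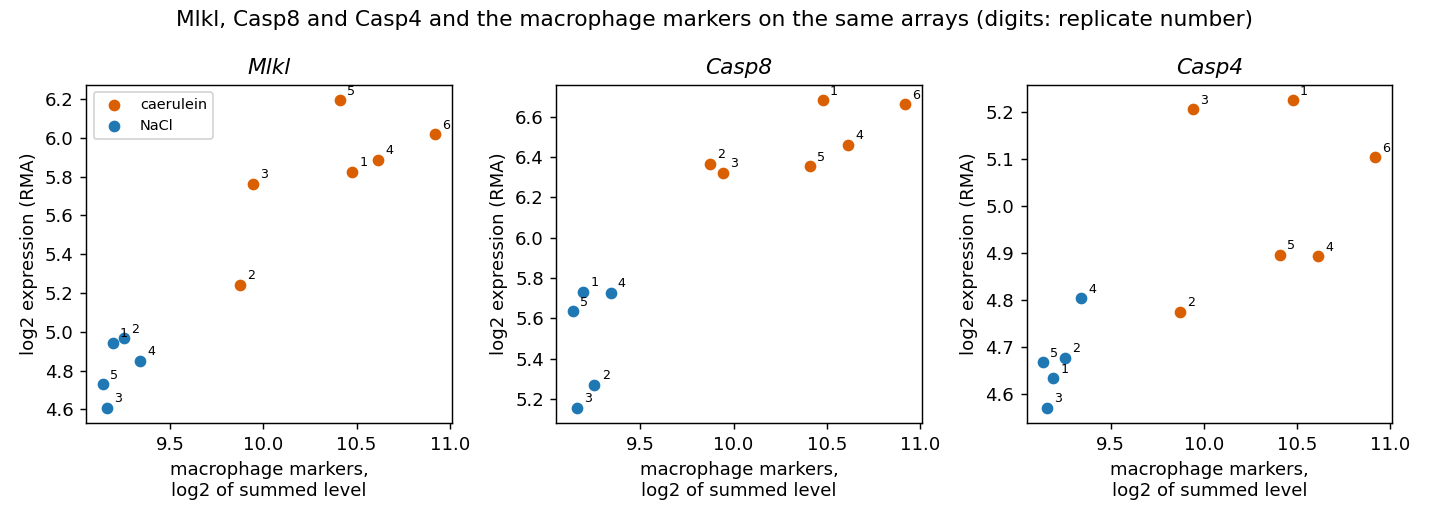
Log2 expression of Mlkl, Casp8 and Casp4 (y axis, range set per panel) against the log2 summed level of 12 macrophage markers (x axis) on the 6 caerulein arrays (orange) and 5 NaCl arrays (blue); digits are replicate numbers. The caerulein arrays lie above 9.8 on the x axis and the NaCl arrays below 9.4, and caerulein replicate 2 is the lowest caerulein array for Mlkl and Casp4.

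Of 5 other caspases measured, 1 was higher and 0 lower as deposited, near the 20.3% of all genes called higher, and 0 higher and 4 lower with an equal mean of the reference genes. The one higher was Casp2, which encodes a caspase of stress responses, with values of 6.39 to 6.63 in caerulein arrays and 5.76 to 6.36 in NaCl arrays and a log2 difference of 0.43 (limma adjusted p = 0.0026), but -0.16 with an equal mean of the reference genes. Casp6, Casp9, Casp12 and Casp14 did not pass, with differences from -0.15 to 0.06.

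Of 12 genes of the apoptosome and of caspase inhibition 5 were higher and 2 lower as deposited, beside 20.3% and 34.3% of all genes. With an equal mean of the reference genes 2 were higher and 9 lower. Apaf1, the scaffold on which caspase-9 is activated, averaged 6.90 ± 0.13 in caerulein arrays (SD, n = 6) and 5.61 ± 0.22 in NaCl arrays (SD, n = 5), a 2.44-fold rise (limma adjusted p = 5.3e-07). Cycs, which encodes the cytochrome c that triggers this scaffold, was 2.08-fold higher, and its other 2 probe sets were higher too, by 0.98 and 0.40. The one at 0.40 had a low mean level of 3.56 and a smaller change (limma adjusted p = 0.0327). Birc3, an inhibitor of apoptosis that ubiquitinates RIPK1, was higher by 0.47 (limma adjusted p = 0.01), but -0.11 with an equal mean of the reference genes. Dffa, the inhibitor of the apoptotic DNase, was lower, at -0.35 (limma adjusted p = 0.0121).

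Of 22 measured genes of the death receptor complex and of necroptosis regulation 11 were higher and 2 lower as deposited. Among all genes these shares were 20.3% and 34.3%. Of the 22 only Fas, Tlr3 and Tnfaip3 lay below the median level of all probe sets, above which calls in both directions were more frequent. The list median was 0.21, and with an equal mean of the reference genes 4 were higher and 14 lower. Mapkapk2, a kinase that phosphorylates RIPK1 and limits its activation, averaged 8.91 ± 0.12 in caerulein arrays (SD, n = 6) and 6.76 ± 0.13 in NaCl arrays (SD, n = 5), a 4.43-fold rise (limma adjusted p = 6.1e-10). Tnfrsf1a, the main receptor for tumour necrosis factor, was 3.15-fold higher (limma adjusted p = 3.1e-09), with 8.80 to 9.04 in caerulein arrays and 7.07 to 7.41 in NaCl arrays. Rnf31, the catalytic subunit of the linear ubiquitin ligase that acts on the receptor complex, was 2.36-fold higher, with all caerulein arrays above all NaCl arrays.

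Cyld, a deubiquitinase that removes such chains from RIPK1, was 1.67-fold lower, with 5.25 to 5.72 in caerulein arrays below the 6.05 to 6.53 in NaCl arrays (limma adjusted p = 0.00025). Zbp1, a nucleic acid sensor that engages RIPK3 directly, did not pass, at 0.23 (limma adjusted p = 0.155). Cflar, the partner of caspase-8 encoded next to it on chromosome 1, did not pass on any of its 3 probe sets, which had differences of 0.09, 0.08 and -0.11. Fadd, the other gene of this list called lower as deposited, was at -0.29 (limma adjusted p = 0.0384). Zbp1, Cflar and Fadd were named after their values had been seen.

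Of 19 measured inflammasome sensors and regulators 5 were higher and 2 lower as deposited, beside 20.3% and 34.3% of all genes. The median was -0.05, and 3 were higher and 14 lower with an equal mean of the reference genes. Txnip, which encodes a thioredoxin-binding protein that has been linked to NLRP3, was 3.11-fold higher, with 10.47 to 11.55 in caerulein arrays and 8.62 to 9.92 in NaCl arrays (limma adjusted p = 0.00021). Myd88, the adaptor of Toll-like and interleukin-1 receptors, was 2.98-fold higher, and Nek7, a kinase that binds NLRP3, was 2.73-fold higher (limma adjusted p = 1.0e-08 and 1.2e-07). Nlrp6, an epithelial sensor, was 1.34-fold lower, with 5.22 to 5.40 in caerulein arrays and 5.55 to 6.03 in NaCl arrays (limma adjusted p = 0.0018). The sensors Nlrp1a, Nlrp1b, Nlrc4 and Aim2, named after their values were seen, did not pass.

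Of 9 measured gasdermins and substrates or effectors of pyroptosis, 1 was higher and 1 lower as deposited, beside 20.3% and 34.3% of all genes, and 0 higher and 7 lower with an equal mean of the reference genes. Il33, an alarmin of epithelial and stromal cells, had 5.58 to 6.81 in caerulein arrays and 5.21 to 5.56 in NaCl arrays, a log2 difference of 0.87 (limma adjusted p = 0.00422) that was 0.28 and did not pass with an equal mean of the reference genes. Gsdme, another pore-forming gasdermin, was at -0.21 (limma adjusted p = 0.045), a call lost without each array in turn except NaCl replicate 4, and 4 caerulein arrays and 1 NaCl array held the same value, 5.37. Il1b, the main cytokine substrate of caspase-1, spread over 4.60 to 6.28 in caerulein arrays and over 4.78 to 4.96 in NaCl arrays, and its difference of 0.57 did not pass (limma adjusted p = 0.0608). Il18, its other substrate, was at -0.14 (limma adjusted p = 0.0818), and Il1b and Il18 were named after their values were seen.

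The ESCRT-III machinery, which can bud off membrane damaged by MLKL or gasdermin D, has many other roles too. Of 11 genes of this machinery and of factors that act with it, the ESCRT-III list, 9 passed as higher and 0 as lower. The shares among all genes were 20.3% and 34.3%, and the list median was 0.46. With an equal mean of the reference genes 4 of the 11 were higher and 4 lower. All 11 lay above the median level of all probe sets, where calls in both directions were more frequent. In the fit to such probe sets alone 11920 of 17778 were called, 54.1% of them lower. Pdcd6ip, which encodes the adaptor ALIX, averaged 9.58 ± 0.10 in caerulein arrays (SD, n = 6) and 7.86 ± 0.14 in NaCl arrays (SD, n = 5), a 3.30-fold rise (limma adjusted p = 3.6e-09). The filament subunit genes Chmp4b and Chmp2a were 2.42-fold and 1.79-fold higher. Tsg101, an upstream ESCRT subunit, was higher by 0.62 on its brighter probe set but not past the threshold on the other, at 0.15 (limma adjusted p = 0.256).

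**Figure D4:**
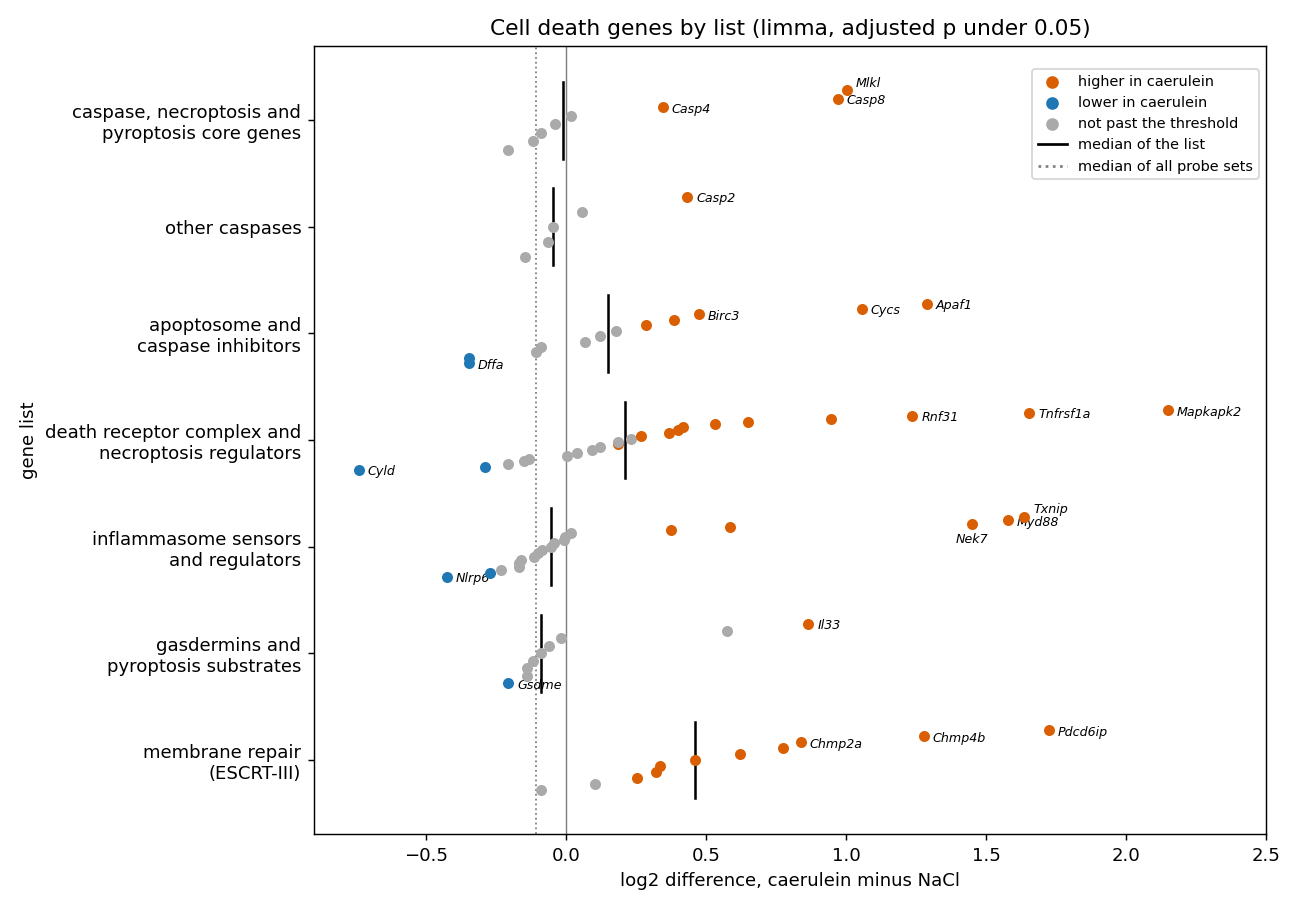
Log2 difference, caerulein minus NaCl (x axis), of each measured gene in 7 lists (rows); orange points were called higher, blue points lower and grey points did not pass, black bars are list medians and the dotted line is the median of all probe sets. Mlkl and Casp8 lie near 1, and the membrane repair list has the highest median, at 0.46.

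The genes most like Mlkl in profile, by the root mean square distance of their values from the NaCl mean over the 11 arrays, were Arrdc1, Pum3 and Parp14, at 0.14 each on the log2 scale. Those most like Casp8 were Atp2b1, Dnajc13 and Nupl1, at 0.10 to 0.12. The 6 were drawn from 18060 genes compared and had differences of 0.94 to 1.04, which the choice by likeness fixes.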

How the data were processed

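The authors deposited log2 expression values for 35556 probe sets on 11 arrays; per the submitters' processing notes they used RMA with the R packages oligo and limma, and no version is named. RMA usually involves background correction, quantile normalisation and a summary over probes. Array medians were 5.20 to 5.25 in caerulein arrays and 5.35 to 5.40 in NaCl arrays. Of the probe sets, 21789 carried 1 gene symbol, 1621 several and 12146 were not listed and stayed unnamed. The sources used here name no genome build for the probes. Therefore coordinates are printed only for RefSeq windows of build GRCm38.p6, and neighbouring genes come from the RefSeq table of that assembly.

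The groups were fitted with limma 3.58.1 in R 4.3.3 (lmFit, eBayes, two-sided, without covariates), adjusted by Benjamini-Hochberg over all probe sets; the fit was tested on simulated data. All adjusted p-values come from limma. Summed marker levels are log2 of the summed linear values. An exact permutation test over 462 splits can give no p below 0.00216. The genes and the lists were chosen with earlier results of these data known. From each list the 3 genes past the threshold with the largest change were named, and 1 that passed against the majority. Of 16 reference genes of the scaling list 11 were measured. The number of arrays limits the precision. Other alternatives were a trended robust prior, array weights, equal 75th percentiles, a second quantile normalisation, cyclic loess, leaving out probe sets below the median level, a block for the replicate number and leaving out each array.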

Additional observations from a re-analysis of the deposited data

Results flagged for a closer look

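The caerulein value of Pycard in replicate 6, at 5.77, lay far from the other 5 caerulein arrays, which held 5.44 to 5.51. The gap to the nearest array was 0.792 of the range of the group, past Dixon's limit for a group of 6. This was the single such value among 52 groups of 5 or 6 arrays examined, where chance gives about 1 in 20. The same array had the highest summed level of macrophage markers, 10.92, and of neutrophil markers, 8.86; their part in the Pycard value was not tested. Without it Pycard was called lower, at -0.26 (limma adjusted p = 0.0202).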

How the results depend on the processing

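Mlkl and Casp8 were higher and past the threshold in every fit and in the exact permutation test (p = 0.00433 and 0.00216). Casp4 was higher in every fit that measured it except the scaling-list one. When the means of the scaling list were made equal, 2237 probe sets were higher and 29277 lower, and 6 of the 8 genes were lower: Casp4 at -0.24, Ripk3 at -0.63, Casp1 at -0.57, Gsdmd at -0.71, Nlrp3 at -0.68 and Pycard at -0.79. The counts higher and lower there were 0 and 4 for other caspases, 2 and 9 for the apoptosome, 4 and 14 for the death receptor complex, 3 and 14 for inflammasome genes, 0 and 7 for gasdermins and substrates, and 4 and 4 for ESCRT-III, and Casp2 and Birc3 were at -0.16 and -0.11. With equal 75th percentiles 1 of the 8 genes was lower, Pycard at -0.27, Casp1 was at -0.044, and 4 death receptor, 5 inflammasome and 2 gasdermin list genes were lower. After cyclic loess 5467 probe sets, 1 inflammasome gene and 0 gasdermin list genes were lower and 2 gasdermin list genes higher, with Ripk3 at 0.089, Gsdmd at 0.077 and Nlrp3 at 0.10. After a second quantile normalisation they were at 0.048, 0.032 and 0.058, with 2 gasdermin list genes higher and 1 ESCRT-III gene lower. Without the probe sets below the median level, which left out 3 of the 8 genes, 6446 probe sets were lower, Pycard was the 1 gene lower (-0.21, limma adjusted p = 0.0435), 1 apoptosome gene was lower and 3 inflammasome genes were higher. Array weights left 0 gasdermin list genes lower. With the replicate number as a block Pycard was the 1 gene lower, at -0.26 (limma adjusted p = 0.0392), Casp1 was at -0.0017, and 1 death receptor and 0 gasdermin list genes were lower. That fit takes nothing from caerulein replicate 6, whose number no NaCl array shares, so its differences equal those without that array (Pycard -0.26, limma adjusted p = 0.0202). Whether the 5 shared numbers pair the samples was not established. Deviations of same-numbered arrays correlated only between -0.052 and 0.060. Yet the NaCl array of the same number correlated best for caerulein replicates 1, 2, 3 and 5, though not 4. In the other direction this held for NaCl replicates 1 and 5 only. Pycard had an exact permutation p of 0.0346 at -0.21. Leaving out each array gave 0 to 1 of the 8 genes lower, 1 to 2 death receptor, 1 to 3 inflammasome and 0 to 1 gasdermin list genes lower, 1 to 2 gasdermin list genes higher, and differences of -0.093 to 0.0063 for Ripk3, -0.011 to 0.049 for Casp1 and -0.26 to -0.17 for Pycard. Averaging the probe sets of a gene changed nothing for the 8 genes, each of which had 1. The causes were not tested.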
